A study of Homo sapiens with 24 samples.

Results

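The response of Y537S T-47D cells to a miR-331-3p mimic was measured as the 2 libraries of cells given this mimic against the 2 libraries of cells given the mimic negative control, one library from each of 2 Y537S clones, for all genes. These were 4 of the 24 libraries of the series. The count table held 26364 genes, and 14877 of them had enough counts to be tested. T-47D is an estrogen receptor-positive luminal breast cancer line. The clones carried the Y537S substitution, which makes the estrogen receptor active without ligand, on one allele of the endogenous ESR1 gene, and every library of the comparison came from such a clone. Cells were kept in hormone-deprived medium, transfected at 10 nM and harvested at 24 h. Served for comparison were the 8 WT libraries, from 2 clones with unaltered ESR1 that received the mimic negative control or a mimic of miR-331-3p, miR-301b-3p or miR-181c-5p. So did the 6 other Y537S libraries, from cells given the inhibitor negative control, an inhibitor of let-7f-5p or the miR-301b-3p mimic. Each genotype was thus represented by 2 clones of a single cell line, and nothing in the labels ties a clone to more than one culture per treatment.

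miRNAs are short RNAs that guide Argonaute proteins to messenger RNAs, chiefly through pairing of the seed at the miRNA's 5′ end with sites in the 3′ untranslated region (3′UTR), after which the message is destabilized or translated less. A mimic is a synthetic duplex that loads the mature strand into the same complex. Messages reported elsewhere to be targets of miR-331-3p include the receptor tyrosine kinase ERBB2, the hydroxylase DOHH that modifies translation factor eIF5A, the cell cycle transcription factor E2F1, the phosphatase PHLPP1 that acts on AKT, the receptor NRP2 and VHL, the substrate receptor of the ubiquitin ligase for hypoxia-inducible factors. The mature RNA is shown with the seed, bases 2 to 8, in capitals, because the search for matching sites rests on it (RefSeq, GRCh38.p14). Poly-A selected libraries do not hold mature miRNAs, so the level of the mimic itself was not measured.
hsa-miR-331-3p: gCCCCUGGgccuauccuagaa

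A site was any 7-base match to the seed, CCAGGGG, on the transcript strand. The stretches of messenger RNA that lie opposite the whole miRNA are printed for 4 of the reported targets and for COL7A1, the gene with the largest fall in the lists described further on, with the seed match in capitals (GRCh37, the coordinates of hg19). The VHL site in its 3′UTR lies at chr3:10192166-10192186 on the plus strand, and the ERBB2 3′UTR sites at chr17:37884386-37884406 and chr17:37884806-37884826 on the plus strand. The first of the 6 DOHH sites, all in the 3′UTR, lies at chr19:3491175-3491195 on the minus strand, and the E2F1 3′UTR site at chr20:32263737-32263757 on the minus strand. COL7A1 held 6 sites in its coding sequence and none in its UTRs, and the 2 shown lie at chr3:48623836-48623856 and chr3:48602219-48602239 on the minus strand.
VHL 3′UTR: tcagaggaacaaaCCAGGGGa
ERBB2 3′UTR, first: cctccgaccacttCCAGGGGa
ERBB2 3′UTR, second: atgaaataaagacCCAGGGGg
DOHH 3′UTR, first: attgcgagggaagCCAGGGGa
E2F1 3′UTR: gggtgggccctctCCAGGGGg
COL7A1 coding sequence: ccgccagcacgtaCCAGGGGt
COL7A1 coding sequence: gggtggtccagagCCAGGGGa

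The libraries of the comparison held 38998579 to 45046905 counts. All 8 luminal epithelial markers were tested, and their summed level was 9795 and 10013 CPM (counts per 1000000 counts of the library) with the control and 13015 and 13379 with the mimic. Of 14 markers of other cell types, 5 had enough counts to be tested and none was called, FABP4 was at 0 in all 4 libraries, and the summed level of 56.4 to 73.2 CPM was mostly COL1A1. The defining markers of the labelled cell type were thus present. The mimic response also rose with the GC content of the transcript, the Spearman correlation across the 14366 genes with a known GC content being 0.49 in Y537S and 0.62 in WT cells, and the median log2 fold change went from −0.44 for genes under 40% GC to 0.53 for genes of 60% or more. The part of this trend in single results was not tested beyond the GC-corrected values given further on.

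With the miR-331-3p mimic, 2563 genes were called higher and 2350 lower than with the control in Y537S cells. These were 17.2% and 15.8% of those tested and 33.0% in either direction (quasi-likelihood test of edgeR, p adjusted after Benjamini and Hochberg, threshold 0.05). All 4913 called genes moved the same way in both clones. The calls rest on these same libraries, so this is no separate replication. With clone as a block in the fit, 4539 genes were higher and 4496 lower, and these 9035 (60.7%) included all 4913. Correction for GC content without the block left 2712 calls, and the block together with the correction gave 7714 (51.9%, with 26.7% higher and 25.2% lower). Among the 9882 genes with a mean level of at least 3 on the log2 CPM scale, 238 rose and 327 fell by 2-fold or more, and 28 fell but none rose by 4-fold or more. Both libraries with the miR-331-3p mimic stood above all 6 other Y537S libraries for 2149 of the 2563 higher genes (83.8%, against 20.7% of all genes) and below them for 2047 of the 2350 lower genes (87.1%, against 24.2%). For 783 of the higher genes (30.6%, against 8.59%), the 2 control libraries stood below the 6 other libraries. For 571 of the lower genes (24.3%, against 7.41%) these controls stood above them. The same mimic and control libraries made the calls, so shares above those of all genes follow in part from that choice.

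**Figure D1:**
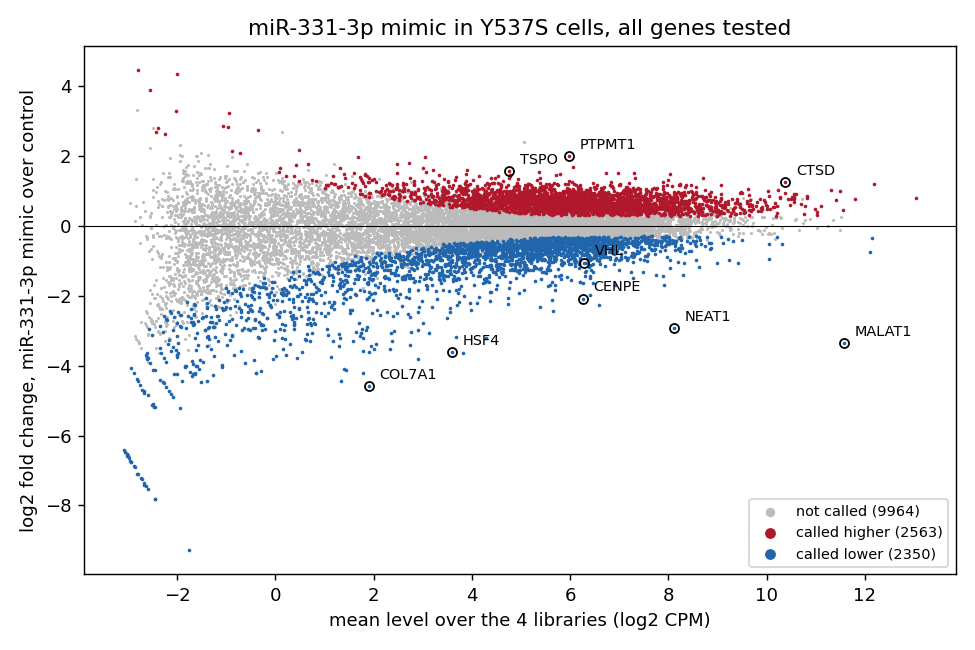
Each point is one of the 14877 genes tested in Y537S cells, with its mean level over the 4 libraries (log2 CPM) on the horizontal axis and the log2 fold change of the miR-331-3p mimic over the control on the vertical axis. Red and blue points are the 2563 and 2350 genes called higher and lower, with MALAT1 at −3.35, NEAT1 at −2.93 and the less abundant COL7A1 at −4.59, and at a mean of 3 or more the deepest fall was PABPC1L at −3.65 and the largest rise PTPMT1 at 1.98.

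The 10 deepest falls among abundant genes, at −2.47 to −3.65 on the log2 scale, included the nuclear long noncoding RNAs MALAT1 and NEAT1. MALAT1, an abundant RNA of nuclear speckles (GRCh37 chr11:65265111-65275544), had 887 and 1107 CPM in the 2 mimic libraries against 9022 and 11787 in the controls and 4337 to 9302 in the 6 other Y537S libraries. Its log2 fold change was −3.35 (SE 0.19, edgeR adjusted p = 0.00523). NEAT1, the RNA scaffold of paraspeckles (chr11:65190245-65213011), had 77.1 and 139 CPM against 663 and 1018 in the controls, and its log2 fold change was −2.93 (SE 0.35, edgeR adjusted p = 0.00665). The mimic and control libraries did not overlap for either RNA, and no other Y537S library reached down to the mimic libraries.

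Of the 10 largest falls at a mean of at least 3, the others were PABPC1L, HSF4, LOC146880, PDXDC2P, AHSA2, CFAP44, LTB4R and NPIPB5, with log2 fold changes of −3.65, −3.61, −3.20, −3.19, −3.05, −2.78, −2.65 and −2.47. HSF4, a heat shock transcription factor (chr16:67198584-67203848), had 3.01 and 4.18 CPM with the mimic, 37.4 and 52.4 with the control and 37.4 to 67.9 in the other Y537S libraries. PABPC1L, a relative of the poly-A binding protein, had 4.13 CPM in each mimic library against 47.7 and 58.5 with the control. In all 10 genes both mimic libraries lay below every other Y537S library. PDXDC2P and NPIPB5 have near-identical copies elsewhere in the genome, so the share of their reads that belongs to them is uncertain. COL7A1, which encodes the type VII collagen of anchoring fibrils (chr3:48601506-48632762), was less abundant and fell furthest among members of the gene lists, from 17.4 and 20.7 CPM to 0.596 and 0.942, a log2 fold change of −4.59 (SE 0.29, edgeR adjusted p = 0.00523). TTC14 and SNHG1, chosen after their values were seen, had 20.4 and 24.7 CPM against 114 and 136, and 14.6 and 18.4 CPM against 67.2 and 61.5.

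**Figure D2:**
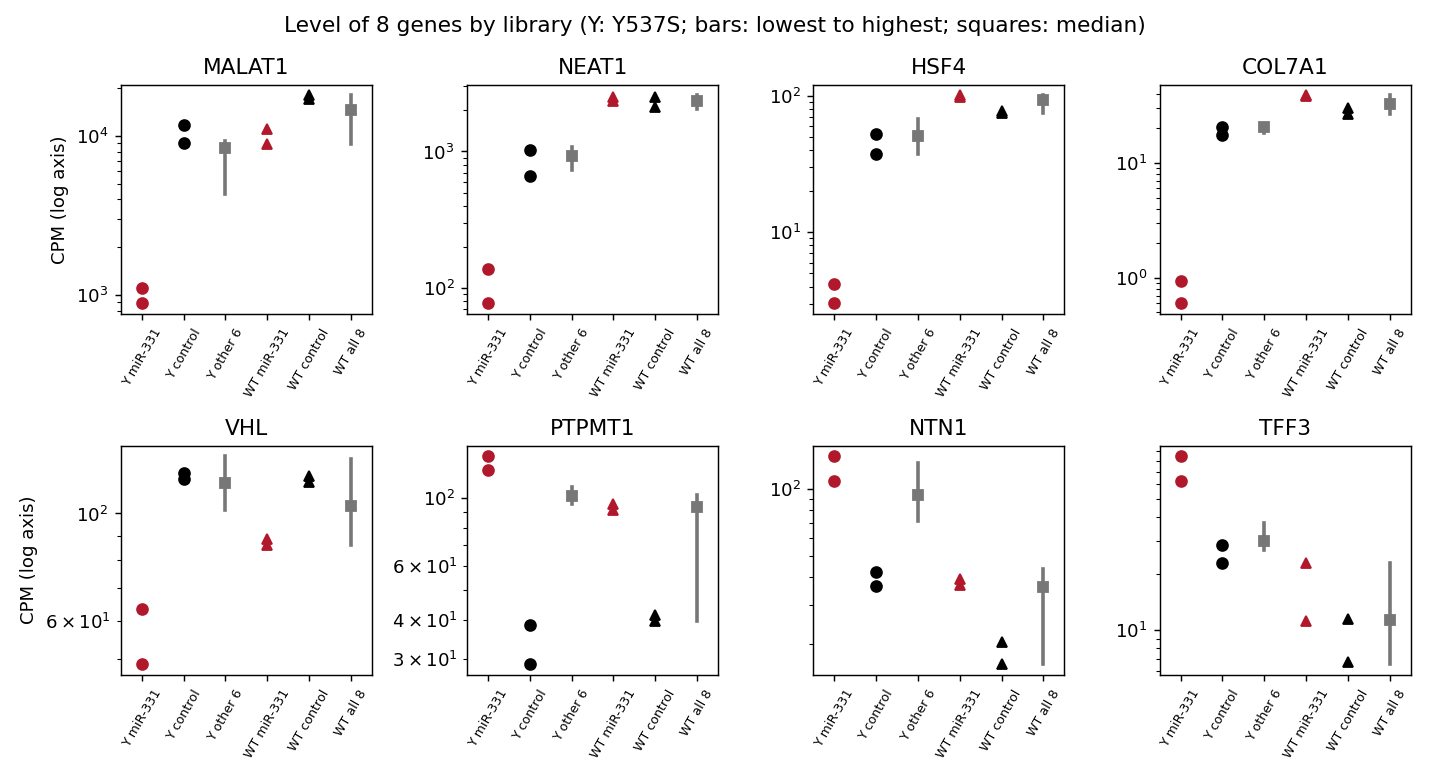
Level of 8 genes in CPM on a log axis, with circles for the 2 Y537S libraries of each group, triangles for the 2 WT libraries and grey bars from the lowest to the highest of the 6 other Y537S libraries and of all 8 WT libraries (squares, median). The 2 Y537S libraries with the miR-331-3p mimic are the lowest for MALAT1, NEAT1, HSF4 and COL7A1, MALAT1 is also lower with the mimic in WT cells, VHL is lower with the mimic than with the control in both genotypes, TFF3 is high in the 2 mimic libraries of Y537S cells, and for PTPMT1 and NTN1 the 2 Y537S controls lie below the 6 other Y537S libraries.

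Summed counts over annotated snoRNA and miRNA genes were lower with the mimic, and among the genes that host them more were called higher than lower. Over the 352 snoRNA and 1293 miRNA genes matched in the annotation, unfiltered, counts summed to 37.6 and 40.3 CPM with the miR-331-3p mimic. They summed to 129 and 125 with the control, 108 to 134 in the 6 other Y537S libraries and 138 to 160 in the 8 WT libraries. For this sum the mimic libraries were thus below all 16 others. Unmatched symbols are outside it, among them MIR3654, which was called higher at 0.88 on the log2 scale. MIR3654 alone had 64.7 and 55.8 CPM with the mimic, above that whole sum, and 35.7 and 31.4 with the control. Its values are scaled over 18 libraries and the sums are not. snoRNAs guide the chemical modification of ribosomal RNA and most are cut from introns. To keep the choice of genes apart from the comparison, the 44 snoRNA and 25 miRNA genes with a mean of at least 0.5 CPM over the 14 libraries outside it were taken: all 44 snoRNA genes had log2 fold changes under 0 with a median of −1.90, and the median of the 25 miRNA genes was −1.81, with 18 of them under 0. In WT cells the same medians were −0.08 and 0.14. Of these 69 genes, 32 were called lower (24 snoRNA and 8 miRNA genes), none higher and 37 neither. Of all 14128 genes at that level, 16.3% were called lower and 18.1% higher.

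These counts are of reads over the interval of the small RNA gene, and 30 of the genes lay inside an intron of the main transcript of one of 28 tested hosts. In 29 of the 30 the small RNA gene had a lower log2 fold change than its host, and the medians were −1.83 and 0.34. Among the 28 hosts, 11 were called higher and 2 lower, against 17.2% and 15.8% of all genes tested. Inside RPL7A, which encodes a protein of the large ribosomal subunit, SNORD36A (chr9:136217311-136217383, plus strand) had 20 and 25 counts with the mimic against 101 and 71 with the control, a log2 fold change of −1.93 (SE 0.44, edgeR adjusted p = 0.0242), whereas RPL7A itself had 1686 and 1310 CPM against 1123 and 935, a log2 fold change of 0.57 (SE 0.15, edgeR adjusted p = 0.0328). Inside DDX5, which encodes an RNA helicase, MIR5047 (chr17:62497332-62497431, minus strand) fell from 311 and 402 counts to 46 and 57, and its log2 fold change of −2.77 (SE 0.26) stood beside −0.49 (SE 0.08) for DDX5. Both pairs were chosen after their values were seen. SNORD36A shows how few counts stand behind single small RNA genes.

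Unprocessed pseudogenes, which arose by duplication and can keep introns, and long noncoding RNA genes had medians under 0 as well, nearer to it. Of 169 unprocessed pseudogenes at the same level in the outside libraries, 65 were called lower and 2 higher (38.5% and 1.18%), with a median log2 fold change of −0.93 (−0.11 in WT cells). Of 598 long noncoding RNA genes, 100 were lower and 16 higher (16.7% and 2.68%, the first near the 16.3% of all genes) with a median of −0.30 (0.05 in WT cells). The median of 12725 protein-coding genes was 0.03, and that of 78 processed pseudogenes, which lack introns, was −0.11. Counts assigned to long noncoding RNA genes came to 4887 and 5092 CPM with the mimic, 14315 and 17770 with the control and 10214 to 15436 in the other Y537S libraries. Most of that fall was MALAT1: without it the sums were 4095 and 4059 CPM with the mimic, 5422 and 5833 with the control and 5642 to 6100 in the other Y537S libraries. RNA of nucleus and cytoplasm was not measured separately. Since these 2 libraries are the only ones of Y537S cells with this mimic, the mimic and the preparation of the libraries cannot be told apart, and in bulk RNA neither can fewer cells of a kind and less RNA per cell.

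The largest rises were smaller, at 1.504 to 1.98 on the log2 scale, and the control libraries differed in where they stood. TSPO, a cholesterol-binding protein of the outer mitochondrial membrane, had 52.1 and 43.8 CPM with the mimic, 16.5 and 16.8 with the control and 20.1 to 26.6 in the 6 other Y537S libraries, with a log2 fold change of 1.56 (SE 0.13, edgeR adjusted p = 0.00605). TFF3, a secreted trefoil peptide regulated by estrogen, had 84.9 and 62.2 CPM against 28.6 and 22.7, with 26.8 to 37.4 in the others. TMEM238, HMX1, MAPK8IP2 and TMEM160 likewise had both mimic libraries above every other Y537S library. The 2 controls lay below the 6 other Y537S libraries for 6 of the 10 largest rises, TSPO and MAPK8IP2 among them.

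For PTPMT1, NTN1, SIDT1 and IGFBPL1 the log2 fold change shrank to 0.52 or less against the inhibitor negative control, and both mimic negative control libraries lay below the 6 other Y537S libraries. PTPMT1, a mitochondrial phosphatase of cardiolipin synthesis (chr11:47586982-47595013), had 137 and 123 CPM with the mimic and 28.7 and 38.4 with the control, but 95.7 to 108 in the other Y537S libraries. Its log2 fold change was 1.98 (SE 0.17, edgeR adjusted p = 0.00605) against the mimic negative control and 0.43 (adjusted p = 0.0283) against the inhibitor negative control. NTN1, the guidance cue netrin-1, went from 1.69 to 0.29 (edgeR adjusted p = 0.302), SIDT1 from 1.504 to 0.40 (adjusted p = 0.348) and IGFBPL1 from 1.59 to 0.52 (adjusted p = 0.0725). Against the same mimic negative control, the miR-301b mimic gave 1.61 for PTPMT1, 1.06 for NTN1, 1.28 for SIDT1 and 1.33 for IGFBPL1 in the same clones. In WT cells PTPMT1 was also low with the mimic negative control, at 39.7 and 41.5 CPM, with a highest WT value of 102. The falls of MALAT1, NEAT1, HSF4 and COL7A1 were −2.60, −3.14, −3.68 and −4.66 against the inhibitor negative control.

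Of the 6 reported targets, 5 were tested, 1 was called lower (15.8% of all genes were) and none higher, and the median log2 fold change was −0.16. VHL had 48.8 and 63.5 CPM with the mimic, 121 and 118 with the control and 102 to 131 in the other Y537S libraries. Its log2 fold change was −1.05 (SE 0.15, edgeR adjusted p = 0.00815), and it was −0.43 in WT cells (edgeR adjusted p = 0.000913). ERBB2 had 258 and 320 CPM against 317 and 326 with the control, groups that overlapped, and its log2 fold change was −0.12 (SE 0.13). The values were −0.41 (SE 0.31) for DOHH, −0.16 (SE 0.14) for PHLPP1 and 0.29 (SE 0.10) for E2F1, and none of these passed the test. NRP2 had too few counts. With the block and GC correction all 5 were called lower, where 25.2% of all genes were, and the median was −0.56. With the block alone, DOHH was called lower and E2F1 higher, where 30.2% of all genes were lower and 30.5% higher.

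Of 7 genes picked from those the study discusses, KIF14, CDK1 and PIK3CB were called lower and TUSC2 higher. KIF14, a kinesin of cytokinesis, had 46.1 and 56.3 CPM against 104 and 101, a log2 fold change of −0.96 (SE 0.13, edgeR adjusted p = 0.00748). PIK3CB, a catalytic subunit of phosphoinositide 3-kinase, had 109 and 124 CPM against 173 and 160 (−0.48), but the 6 other Y537S libraries spanned 88.6 to 140, so the controls were the libraries outside that range. CDK1, the mitotic kinase, had a log2 fold change of −0.43 that became 0.19 after GC correction, and with the block as well it was called higher (edgeR adjusted p = 0.00327). ESR1 itself differed more between clones than with the mimic, at 203 and 130 CPM against 258 and 170, and its −0.33 was called with the block only (edgeR adjusted p = 1.98e-05). PRKD3 (−0.11) and PLAGL2 (0.05) did not pass, and PRKD3 was called higher with the block and GC correction, at 0.29 (edgeR adjusted p = 0.000871). Several of these genes were named for other miRNAs of the study.

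Genes of mitosis, centrioles and DNA repair fell more often than they rose. Over all genes tested 17.2% were called higher and 15.8% lower, and the counts of each list are to be read beside these shares. For counts with the block and GC correction the shares are 26.7% and 25.2%. Of 49 tested mitosis genes 22 were lower and 4 higher, with a median of −0.33. CENPE, a kinetochore motor, had 31.8 and 46 CPM against 164 and 173, a log2 fold change of −2.08 (SE 0.19, edgeR adjusted p = 0.00617), and SMC4, a condensin subunit, had 250 and 289 against 661 and 599 (−1.19). BIRC5 and PLK1, also active in mitosis, rose by 0.69 and 0.59 on the same scale. The list's median was 0.01 after the block and GC correction, with 16 lower and 11 higher, and the median transcript of the list had 40.8% GC. Proliferation markers outside the rule for named genes did not move together: MKI67 was at −0.97, TOP2A at −0.41 and CCNB1 at 0.22 (edgeR adjusted p = 0.265).

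Of 44 centriole and cilium genes 20 were lower and 2 higher with a median of −0.50, and the GC correction with the block left a median of −0.30 with 25 lower and 7 higher. CEP152, which recruits the kinase that starts centriole duplication, had 7.18 and 7.54 CPM against 28.7 and 23.7 (−1.80, SE 0.16, edgeR adjusted p = 0.00617), and IFT80 of the intraflagellar transport complex had 32.5 and 32.1 against 79.9 and 79.1 (−1.27). Of 43 DNA repair genes 19 were lower and 1 higher, with a median of −0.31 and of −0.16 with the block and GC correction. BRCA2 and XRCC2, both of homologous recombination, had log2 fold changes of −1.48 and −1.56, and XRCC6, the Ku70 subunit of end joining, rose by 0.41. Of 40 DNA replication genes 9 were higher and 2 lower, beside 17.2% and 15.8% of all genes, with a median of 0.09. With the block and GC correction 11 were higher and 11 lower, and in WT cells 6 were higher and 8 lower. The 2 lower ones in Y537S cells were CLSPN (−0.63) and RFC3 (−0.56). MCM2, a subunit of the replicative helicase, had 344 and 337 CPM against 198 and 200 (0.81, SE 0.08), and CDT1, which loads that helicase, had 127 and 128 against 58.7 and 65.3 (1.07, SE 0.10). Of 33 regulators of G1 and S entry 7 rose and 7 fell, near the shares over all genes of 17.2% and 15.8%. The first included CDK4 (0.85) and cyclin CCND3 (0.83) and the second MYBL1 (−1.44) and E2F7 (−0.97).

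The most one-sided list was that of the mitochondrial respiratory chain, with 51 of 71 genes higher and 1 lower and a median log2 fold change of 0.54. ATP5G2, a subunit of the ATP synthase ring, had 447 and 411 CPM against 225 and 219 (0.98, SE 0.09, edgeR adjusted p = 0.00606), and NDUFS7 of complex I had 48.7 and 46.2 against 21.8 and 20.2 (1.21). UQCRB of complex III was the lower one at −0.30, and at 0.09 after GC correction. With the block and GC correction 69 of the 71 were higher and none lower, with a median of 0.46. Families grouped by gene symbol after the values were seen shifted likewise: 61 of 76 cytoplasmic ribosomal protein genes were higher and 1 lower (median 0.63), 35 of 76 mitochondrial ribosomal protein genes were higher and 2 lower (0.38), and 16 of 35 proteasome subunits were higher and none lower (0.29). Ribosomal protein genes have many processed copies, which makes single members such as RPS18 at 2.39 (SE 1.44, not called) and RPL36A at −1.90 uncertain. ZNF genes, most of which encode DNA-binding repressors, went the opposite way, with 151 of 506 lower and 31 higher (−0.40).

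Among luminal and estrogen-regulated genes more were called higher than lower, and most were not called. Beside them, 17.2% of all genes were called higher and 15.8% lower, and 26.7% and 25.2% with the block and GC correction. Of 42 estrogen response genes 11 were higher and 2 lower with a median of 0.30, which was 0.16 with the block and GC correction. CTSD, the lysosomal protease cathepsin D, had 2321 and 1950 CPM against 956 and 883 (1.25, SE 0.10, edgeR adjusted p = 0.00605), whereas PGR, the progesterone receptor, had 850 and 984 against 1293 and 1387 (−0.51, SE 0.11, edgeR adjusted p = 0.0186). Of 34 genes of luminal identity and nuclear receptors 11 were higher and 1 lower, with a median of 0.25, and with the block and GC correction 14 were higher and 8 lower with a median of 0.09. The keratins KRT8, KRT18 and KRT19 had log2 fold changes of 0.78, 0.79 and 0.73, and the transcription factors FOXA1 (0.29) and GATA3 (0.18) passed only with the block. Of 39 epithelial junction genes 18 rose and 3 fell. CLDN4, a tight junction claudin, had 540 and 494 CPM against 271 and 266 (0.98, SE 0.09, edgeR adjusted p = 0.00606), and PKP3 of desmosomes was at 0.80. The polarity genes DLG1 and PRKCI were at −0.44 and −0.61, and DLG1 was at 0.01 after GC correction.

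Among 49 tested genes of matrix and cell-matrix adhesion, of 56 listed, 12 were higher and 6 lower. AGRN, the proteoglycan agrin, had 1029 and 983 CPM against 549 and 519 (0.95), and the tetraspanin CD151 was at 0.80. LAMA3, a laminin chain, had 26.8 and 27.7 against 54.8 and 55.4 (−0.98), which leaves COL7A1 as the extreme of the list. Of 24 receptor tyrosine kinases 5 were higher, including EPHB3 (0.90) and ROR2 (0.60), and 1 lower, ERBB4 (−0.55), against 17.2% and 15.8% of all genes. Of 45 genes of PI3K and MAPK signalling 10 were higher and 6 lower, which is near those shares. The members that define the mTOR complexes moved apart: RPTOR of complex 1 had 101 CPM in both mimic libraries against 42.2 and 42.8 (1.28, SE 0.09, edgeR adjusted p = 0.00596), and RICTOR of complex 2 had 23.8 and 29.8 against 64.2 and 63.7 (−1.22, SE 0.14, edgeR adjusted p = 0.00627). For RPTOR the controls also lay below the other Y537S libraries at 60.2 to 73.2. For RICTOR they lay above them, at 47.1 to 62.4. The controls also lay above those libraries for LAMA3, CENPE, SMC4, BRCA2, XRCC2, CEP152, DCP2 and KIF14, among other named genes. They lay below them for AGRN, CD151, CTSD, CLDN4, ATP5G2, NDUFS7 and KRT18, again among others. For each gene listed here the mimic libraries lay outside those libraries on the other side.

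In the lists of stress and death, 15 of 44 ATF4 targets and genes of the unfolded protein response were higher and 1 lower, with a median of 0.28. Over all genes 17.2% were higher and 15.8% lower. SHMT2 of serine metabolism was at 0.87 and SESN2, a stress-induced regulator of mTOR complex 1, at 0.88, while EDEM1 of endoplasmic reticulum degradation was at −0.44. Of 28 p53 targets 10 were higher and 7 lower, with FDXR at 0.89 and MDM2 at −0.41, and of 28 BCL2 family and caspase genes 9 were higher and 5 lower. The pro-apoptotic BAX (0.87) and the anti-apoptotic BCL2L1 (0.62) both rose, and the inhibitors of apoptosis XIAP (−0.69) and BIRC2 (−0.64) fell. Cholesterol and fatty acid synthesis genes split into 10 higher and 6 lower of 33: TM7SF2 (0.87) and SCAP, the escort of sterol-responsive transcription factors (0.96), were up, and SC5D (−0.86) and STARD4 (−1.31) down. Of 37 sphingolipid genes 10 were higher, including PSAP (0.81), and 3 lower, including GBA2 (−0.70) and SGPP1 (−0.79).

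Of 45 tested interferon-stimulated genes, of 51 listed, 3 were higher and 5 lower with a median of −0.26. Both were smaller shares than the 17.2% and 15.8% of all genes. IFIT1, which binds foreign RNA, had 3.68 and 2.39 CPM against 8.12 and 9.23 (−1.48, SE 0.28, edgeR adjusted p = 0.0147), but the 6 other Y537S libraries spanned 2.57 to 64.2, and IFIT3 was at −1.75. HLA-B (0.74) and BST2 (0.56) were higher. Against the inhibitor negative control, where 26.4% of all genes were called (13.1% higher, 13.2% lower), the list had 24 lower and none higher with a median of −0.92, and IFIT1 was at −3.89 there. In the miRNA machinery 10 of 40 genes were lower and 4 higher. Besides PABPC1L, the decapping enzyme DCP2 had 202 and 222 CPM against 455 and 444 (−1.05, SE 0.09, edgeR adjusted p = 0.00617), and TARBP2, the partner of Dicer, was at 0.73. The deadenylase CNOT7 was at 0.48, with 113 and 115 CPM inside the 101 to 116 of the other Y537S libraries and the controls at 83.7 and 84.0 below them, and it was at 0.07 against the inhibitor negative control (edgeR adjusted p = 0.656). Of 61 deubiquitinases 21 were lower, such as USP53 (−0.82) and OTUD4 (−0.78), and 10 higher, such as OTUB1 (0.86) and JOSD2 (1.23).

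With clone as a block, under which 30.5% of all genes were higher and 30.2% lower, more members were called in most lists. Among lists with a median below 0, 30 were lower and 11 higher in mitosis, 29 and 5 in centrioles and cilia, 29 and 5 in DNA repair, 21 and 11 in the miRNA machinery and 19 and 8 among interferon-stimulated genes. Among lists with a median above 0, 24 were higher and 5 lower in the estrogen response, 20 and 3 in luminal identity, 25 and 7 in the ATF4 and unfolded protein response list, 25 and 9 in matrix and adhesion, 20 and 9 in cholesterol and fatty acid synthesis, 16 and 6 in sphingolipid metabolism and 11 and 3 among receptor tyrosine kinases. Mixed lists stayed mixed, with 17 higher and 10 lower in DNA replication, 17 and 13 in PI3K and MAPK signalling, 11 and 12 among regulators of G1 and S entry and 11 and 11 in the BCL2 family and caspases.

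With the block and GC correction, where 26.7% of all genes were higher and 25.2% lower, several medians moved to near 0. Receptor tyrosine kinases went to 5 higher and 7 lower with a median of 0.02, matrix and adhesion to 16 and 11 with 0.07, and cholesterol and fatty acid synthesis to 14 and 8 with 0.04. Epithelial junctions had 20 higher and 9 lower (median 0.17), the ATF4 and unfolded protein response list 22 and 8 (0.18), sphingolipid metabolism 18 and 5 (0.17), p53 targets 10 and 4 (0.15) and PI3K and MAPK signalling 17 and 11 (0.11). DNA replication and the G1 and S regulators had 11 higher and 11 lower each. The BCL2 family and caspases turned from a median of −0.09 to 0.17, with 10 higher and 8 lower. Interferon-stimulated genes had 7 higher and 17 lower (−0.22), the miRNA machinery 9 and 16 (−0.05) and deubiquitinases 12 and 21 (−0.05). List members named above that lost their call with both settings included BIRC2 (−0.15), MDM2 (−0.04), DLG1 (0.01) and UQCRB (0.09). PKP3 and ROR2 were among those that lost theirs with GC correction and no block, at 0.19 each.

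**Figure D3:**
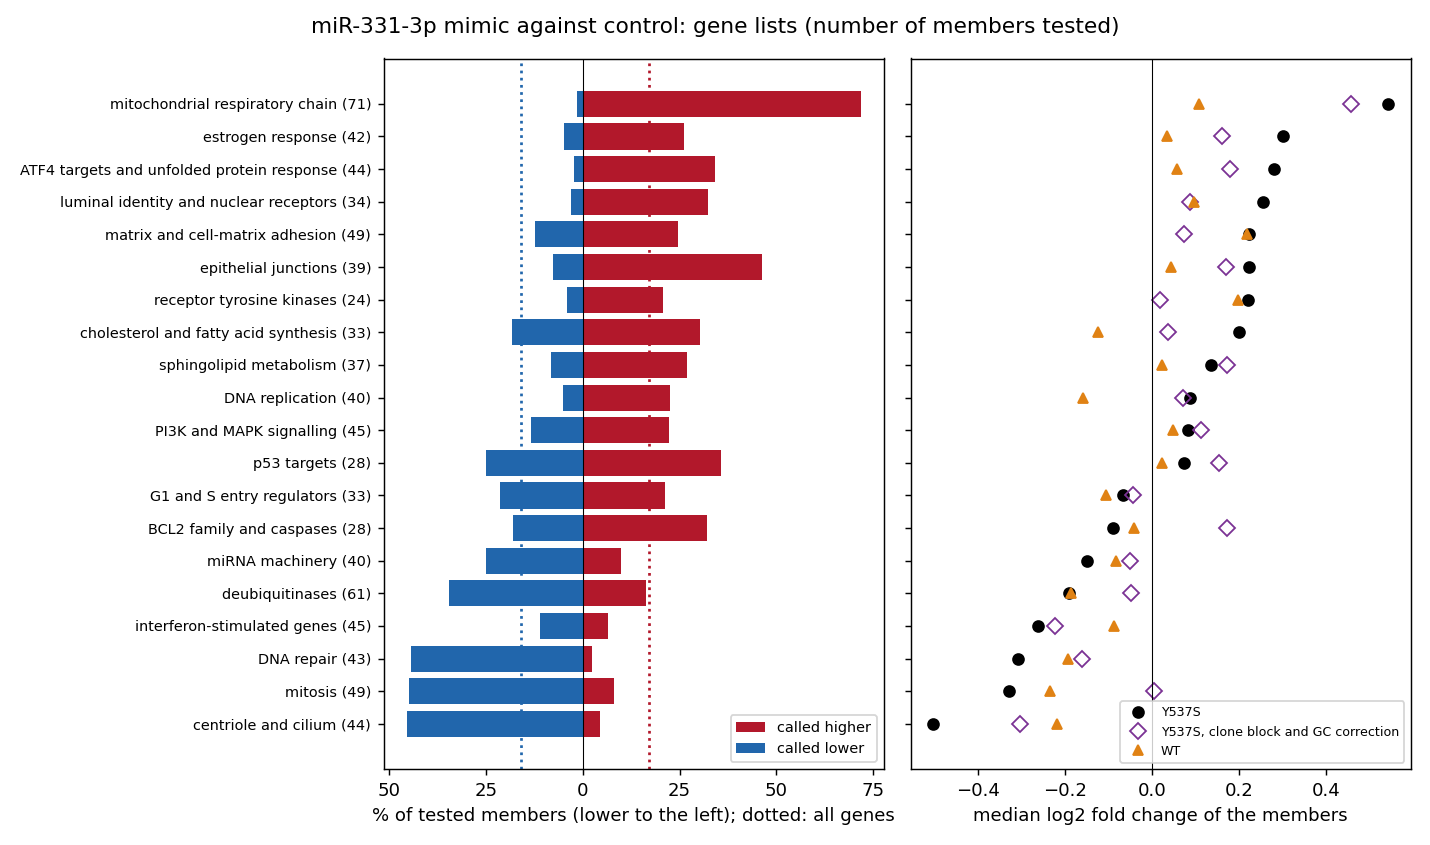
The left panel gives the percent of tested members called higher (red) and lower (blue) in the 20 gene lists with 20 or more tested members, with dotted lines for all genes (17.2% and 15.8%), and the right panel the median log2 fold change in Y537S cells, in Y537S cells with the block and GC correction, and in WT cells. The respiratory chain list lies furthest right at 0.54 and stays at 0.46 after correction, whereas mitosis moves from −0.33 to 0.01.

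The WT clones given the same mimic shared no library with this comparison. With the mimic, 3755 of 15140 genes were called there (24.8%), 2149 higher and 1606 lower. Of the 2556 genes called higher in Y537S cells and tested in both genotypes, 2343 (91.7%) had the same sign in WT cells and 1352 (52.9%) were called higher there too. Of the 2343 called lower, 1892 (80.8%) had the same sign and 847 (36.2%) were called lower, while 103 were called higher in WT cells. Read from the other side, 63.0% of the genes higher in WT and 52.9% of those lower in WT were called the same way in Y537S cells. Both genotypes shared the GC trend and were each set against a mimic negative control. The shared signs thus also cover that trend and any shift common to the controls. PTPMT1, given above, was low with that control in both genotypes. The part of either in the shared signs was not tested.

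A test of the difference itself, over the 8 libraries, called 1557 of 15666 genes (9.94%), with 1014 (6.47%) more negative and 543 (3.47%) more positive in Y537S cells. With clones as blocks the counts were 2728 and 2617. The split depended on scaling, with 944 more negative and 761 more positive under RLE size factors and 1172 and 1124 in DESeq2, so the excess of negative differences among all calls is not firm. The deepest falls led: the difference was −5.05 for COL7A1 (edgeR adjusted p = 5.47e-05), which was 0.44 higher with the mimic in WT cells. It was −4.35 for SEC31B, −4.07 for SLC16A8, −4.02 for HSF4 and −3.82 for PABPC1L. SEC31B had 0.373 and 0.99 CPM with the mimic in Y537S cells against 11.3 and 13.3, and SLC16A8, a lactate transporter, 0.447 and 1.11 against 6.79 and 10.8, while their WT fold changes were 0.21 and 0.61. MALAT1 fell in both genotypes, by 3.35 and by 0.81 on the log2 scale, and the difference of −2.56 was called (edgeR adjusted p = 0.000587). NEAT1 was at 0.07 in WT cells.

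**Figure D4:**
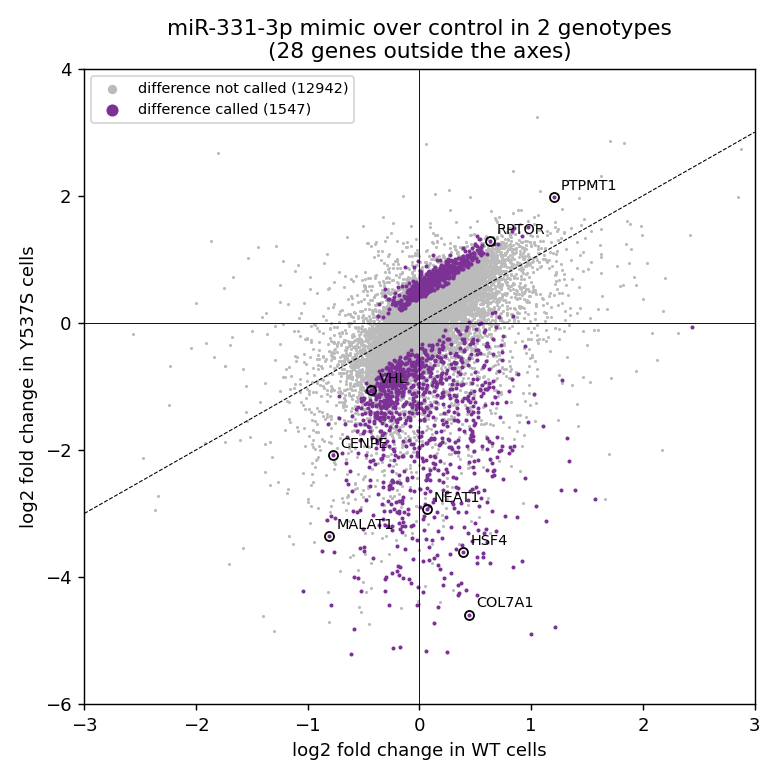
Each point is one of the 14489 genes tested in both genotypes, with its log2 fold change in WT cells on the horizontal and in Y537S cells on the vertical axis, the dashed line marking equal change. Purple points are the 1547 genes whose difference was called, 1014 of all 1557 called differences were negative, and 28 genes lie outside the axes.

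Positive differences were smaller. Among the largest were 0.99 for GLUD2, 0.91 for MIR3654, 0.84 for GALK1 and 0.82 for GLA. GALK1, the kinase that starts galactose breakdown, had 33.6 and 35.5 CPM against 12.4 and 15.1 in Y537S cells, a log2 fold change of 1.36, and was at 0.51 in WT cells. GLUD2 is a near copy of GLUD1, and its reads are uncertain for that reason. By list, the difference was positive and called in 22 of 71 respiratory chain genes and negative in none, and it was so in 32 of 76 cytoplasmic ribosomal protein genes, against 1 negative. It was negative in 12 of 49 mitosis genes, 10 of 44 centriole and cilium genes and 6 of 43 DNA repair genes, and positive in 1, 2 and 1, against 6.47% negative and 3.47% positive over all genes, a split that moved with scaling. For VHL the difference was −0.64 (edgeR adjusted p = 0.0432), so that the fall was deeper in Y537S cells, and for ERBB2 it was −0.0017 (adjusted p = 0.996). Calls of a difference rested on all 8 libraries: leaving out the D1 or D4 library of the WT control left 505 and 283, leaving out that of the WT mimic 315 and 380, and leaving out the clone 2 library of the Y537S mimic gave 2378. Without the clone 1 library of the Y537S mimic, or the clone 1 or clone 2 library of the Y537S control, the counts were 1019, 893 and 776.

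Genes with a seed match were not lower over all genes, and were lower once genes of like GC content were compared. Of 13223 tested coding genes with a 3′UTR, 2049 (15.5%) held at least 1 match there, and their median log2 fold change was 0.14 against 0.00 without a match. With 2 matches it was 0.24 and with 3 or more 0.21, over 326 and 113 genes. Of the genes with a match 11.5% were called lower and 23.4% higher, against 15.9% and 18.2% without. Genes with matches also had a higher GC content, a median of 54.6% against 47.4%. Within 3 bins of GC content that held equal numbers of coding genes the sign turned: genes with a 3′UTR match were lower than those without by 0.08, 0.03 and 0.09 from the lowest to the highest bin, and lower in both clones in each bin. In WT cells the same differences were −0.06, −0.02 and −0.04. These are descriptions of medians and carry no test.

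Matches in the coding sequence gave the same picture with a steeper step. Of 13243 coding genes 2262 (17.1%) held one, and the median was 0.09 against 0.01 without, but it was −0.09 for the 129 genes with 3 or more, of which 21.7% were called lower and 13.2% higher. In WT cells those 129 genes had a median of 0.24. Within the bins of GC content the genes with a coding match were lower by 0.11, 0.10 and 0.18, and after the GC correction and the block the overall difference was −0.15. Among the genes with the most coding matches were VPS13D with 7, CELSR3 with 6, and COL9A2 and EHBP1L1 with 5 each. VPS13D, a lipid transfer protein, had 153 and 180 CPM with the mimic against 223 and 231 with the control (−0.42, SE 0.12, edgeR adjusted p = 0.0418) and was at −0.16 in WT cells. CELSR3 (−0.17), EHBP1L1 (−0.12) and COL9A2 (0.31) did not pass. With the block CELSR3 was called lower and COL9A2 higher (edgeR adjusted p = 0.0317 and 0.0007), and with the block and GC correction all of them were called lower, at −0.63, −0.65 and −0.24. The 5 with the most 3′UTR matches were CCDC85C with 8, ITSN1 with 7, NACC1 and RIMS4 with 6 and DAGLA with 5, and CCDC85C (0.55) and NACC1 (0.63) were higher, while ITSN1 (−0.08), RIMS4 (0.43) and DAGLA (0.22) did not pass. With the block RIMS4 and DAGLA were called higher (edgeR adjusted p = 0.00187 and 0.0148), and with the block and GC correction DAGLA was called lower at −0.27 and NACC1 lost its call at 0.11.

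**Figure D5:**
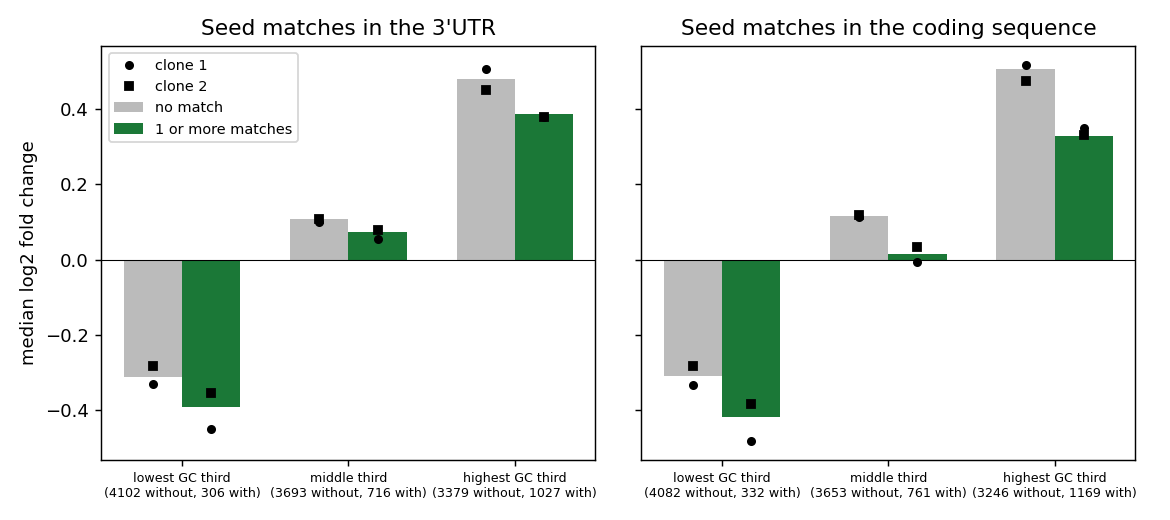
Bars give the median log2 fold change in Y537S cells of genes without (grey) and with (green) a miR-331-3p seed match in the 3′UTR (left) and in the coding sequence (right), in 3 equal bins of coding genes by GC content, and points give the same medians in each clone. In every bin the green bar lies below the grey one, by 0.03 to 0.09 on the left and by 0.10 to 0.18 on the right.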

How the data were processed

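Poly-A selected RNA was sequenced from T-47D clones. Per the study's methods, the authors aligned reads to hg19 with HISAT2, converted them with SAMtools and counted reads per UCSC Known Gene with featureCounts of Subread. Versions are not given in the sources used here, nor is the strand setting, so overlapping genes on opposite strands cannot be told apart. The deposited values are raw gene counts. The authors used DESeq2, with clones as biological duplicates. The table of D538G cells was not used.

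Counts were analysed with edgeR 4.0.16 in R 4.3.3 (TMM scaling, filterByExpr, quasi-likelihood F test, Benjamini-Hochberg adjustment, calls at adjusted p under 0.05) on the 4 libraries, without a block. As 2 against 2 libraries allow no exact permutation p under 0.333, p-values rest on spread shared across genes, and nothing states separate cultures within a clone. Levels of single genes per library are CPM scaled over 18 libraries. Sums over markers and over classes of genes are CPM without that scaling. The WT comparison and the difference of responses used the same test. Because each clone gave 1 library per group, clone pairs the libraries. The difference between the 2 clones correlated, over genes, between the mimic and the control libraries (r = 0.54, and 0.17 in WT cells). Alternatives were a clone block, GC correction (lowess, span 0.3), RLE scaling, no filter, DESeq2 1.42.0, all 10 Y537S libraries, adjusted p under 0.01 and leaving out each library. The inhibitor negative control in place of the mimic negative control was added after seeing the data. Data were simulated for this comparison over 14658 genes, with 100 genes changed by 1.5-fold and 100 by 2-fold. Of these 24% and 77% were recovered, and 5.61% of the calls were false. Far fewer genes changed there than the 33.0% called here, so these rates do not measure recovery in the real comparison.

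Symbols were matched to GENCODE v44 lifted to GRCh37, 22494 under the current name and 1363 under a former one, with 2507 left unmatched. GC content, introns and seed matches come from the main transcript. WT columns name clones that the labels do not, so they are replicates of a group. The comparison and the 24 gene lists were chosen with earlier results of these data known. Genes were named by rule: the 10 largest rises and falls among calls that reached 3 log2 CPM on average and had 1 direction in both clones, the 2 members of each list with the smallest p in each direction, all reported targets and 7 genes that the study discusses, the 5 largest differences from WT each way, and the 5 genes with the most seed matches in coding sequence and in 3′UTR. Some genes that meet the rule are not reported here.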

Additional observations from a re-analysis of the deposited data

Results flagged for a closer look

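The response to the mimic differed between the genotypes for 1557 genes by the test of the difference itself, and each of the following values is the log2 fold change in Y537S cells minus that in WT cells for a called gene named in the text. Among genes of the largest falls and other strongly lowered genes, the difference was COL7A1 −5.05, SEC31B −4.35, SLC16A8 −4.07, HSF4 −4.02, PABPC1L −3.82, AHSA2 −3.20, LOC146880 −3.14, PDXDC2P −3.05, NEAT1 −3.01, LTB4R −2.76, MALAT1 −2.56, NPIPB5 −2.37 and CFAP44 −2.32. Among genes of mitosis, centrioles, DNA repair and the cell cycle, the difference was XRCC2 −1.37, CENPE −1.33, CEP152 −1.16, BRCA2 −1.12, MYBL1 −1.06, IFT80 −0.99, SMC4 −0.71, XRCC6 0.52, MCM2 0.53, BIRC5 0.59, CDK4 0.59 and IFT52 0.61. Among genes of lipids and metabolism, the difference was STARD4 −1.02, GBA2 −0.73, SGPP1 −0.62, SC5D −0.53, SHMT2 0.54, ATP5G2 0.54, PSAP 0.56, TM7SF2 0.58, PTPMT1 0.77, GLA 0.82, GALK1 0.84 and GLUD2 0.99. Among genes of signalling, adhesion, protein turnover and the rest, the difference was LAMA3 −0.73, RICTOR −0.73, DCP2 −0.71, VHL −0.64, CELSR3 −0.54, XIAP −0.51, USP53 −0.49, TSC1 −0.41, BCL2L1 0.43, OTUB1 0.49, KRT18 0.61, RPTOR 0.64 and MIR3654 0.91. GLUD2, NPIPB5 and PDXDC2P have near-identical copies, so the genotype difference of their reads is uncertain. Groups of 2 libraries were too small for a check of single libraries that stand apart.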

How the results depend on the processing

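Clone pairs the libraries, and with the replicate block 9035 genes were called in Y537S cells in place of 4913, and 5345 in place of 1557 for the difference from WT cells. GC correction gave 2712 calls in Y537S and 1039 in WT cells, and with the replicate block 7714 in Y537S cells and 4862 for the difference. An adjusted p under 0.01 left 1523. Leaving out 1 library gave 3075 to 4799 calls in Y537S cells (3075 without the clone 2 control and 3237 without the clone 1 mimic), 1550 to 3628 in WT cells (1550 without the D1 mimic and 2305 without the D4 mimic) and 283 to 2378 for the difference, the lone library being assumed to vary as the others do. The count in Y537S cells stayed within 1.5 times with DESeq2 (5333), RLE size factors (4871), no filter (5046), all 10 Y537S libraries (6387) and the inhibitor negative control (3938). For the difference, 34.9% of calls were positive, against 49.0% in DESeq2, 44.6% with RLE size factors and 57.7% with the block and GC correction.

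The median difference between genes with and without a seed match in the 3′UTR was 0.14, and it was 0.028 for an 8-base match, −0.090 with GC correction, −0.090 with the block and GC correction, and 0.128 to 0.138 in single clones. For the coding sequence it was 0.072, and −0.033 for an 8-base match, −0.152 with GC correction, −0.152 with the block and GC correction, 0.068 with the block, 0.085 for the longest transcript and 0.063 to 0.068 in single clones. With GC correction, without and with the block, the log2 fold change turned to 0.190 and 0.192 for CDK1, −0.251 and −0.237 for COL9A2, −0.274 and −0.265 for DAGLA, 0.00982 and 0.0103 for DLG1, −0.179 and −0.179 for E2F1, −0.0963 and −0.0963 for PLAGL2, 0.294 and 0.295 for PRKD3 and 0.0945 and 0.0938 for UQCRB, and with both to −0.0104 for RIMS4. With 1 library left out it ranged from −0.0710 to 0.785 for COL9A2, −0.229 to 0.00210 for EHBP1L1, −0.261 to 0.0448 for ERBB2, −0.669 to 0.000112 for ESR1, −0.162 to 0.0387 for ITSN1, −0.0125 to 0.155 for PLAGL2 and −0.294 to 0.111 for PRKD3. The cause of these turns was not tested. The number of lists with a median above 0 was 14, and 15 to 16 under the alternatives run for it. Against the inhibitor negative control 15 genes of the naming rule lost their call, and their log2 fold change was 0.18 for BST2, −0.34 for CLSPN, 0.07 for CNOT7, −0.25 for EDEM1, −0.32 for ERBB4, 0.16 for GLA, 0.43 for GLUD2, 0.37 for HLA-B, 0.29 for IFT52, 0.52 for IGFBPL1, −0.12 for MDM2, 0.29 for NTN1, −0.23 for PIK3CB, 0.40 for SIDT1 and −0.02 for UQCRB. Single small RNA genes are limited by counts, and all values by 2 clones per genotype.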
